A study of Mus musculus with 6 samples.

Results

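The 34 genes described here mark T cells and natural killer (NK) cells in mouse ureters. They were taken by gene name from the array design, out of 36610 distinct gene names. The rule itself uses no measured value, although the list was drawn up with earlier results of these data known. They fall into 19 genes of T cells in general, 4 of regulatory T cells and immune checkpoints, and 11 of cytotoxic T cells and NK cells. Of the 34 genes, 25 were measured, meaning that a probe exceeded background clearly on all 3 arrays of 1 genotype group or both (the scanner software's call, written as well above background here), among 22260 genes measured in all.

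The ureters came from 2-month-old C57BL/6N mice that had undergone unilateral ureteral obstruction (UUO), the tying of 1 ureter to block the flow of urine, and were taken on day 4. The labels give 3 mice as Col17a1-KO, of which replicate 3 is female and replicates 1 and 2 are male, and 3 mice as Col17a1-WT, all male. Total RNA of each ureter was labelled with Cy3 and hybridised to its own 1-colour Agilent array, and every animal had been obstructed, so no unobstructed level is available here. Which part of Col17a1 was altered, and in which cells, is not in the labels.

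T cells recognise antigen through a receptor whose CD3 and zeta chains carry tyrosine motifs on their cytoplasmic tails. Lck phosphorylates these tyrosines, Zap70 binds them, and the adaptor Lat carries the signal on. CD4 and CD8 are the coreceptors that divide helper from killer T cells, and Foxp3 is the transcription factor of regulatory T cells. NK cells lack the T cell receptor, sense their targets through lectin-like receptors of the Klr families, and kill, like CD8 T cells, with perforin and granzymes. Lymphocytes are known to enter the obstructed kidney together with other leukocytes.

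Values are log2 signals minus the 75th percentile of the same array, so that a value of 0 lies at that percentile, and differences are KO-labelled minus WT with a standard error. The 75th-percentile signal was between 143.71 and 164.89 intensity units on the 6 arrays, and across-gene correlations between arrays were between 0.977 and 0.993. The targeted gene went against the label. The brighter probe of Col17a1, which encodes the hemidesmosomal collagen XVII, had values of 0.50, 0.53 and 0.41 in the ureters labelled KO, against -2.33, -0.80 and -0.39 in WT ureters. The difference was 1.65 ± 0.48 (limma, adjusted p = 0.457). The second Col17a1 probe read -1.76, -1.80 and -1.94 in ureters labelled KO, against -3.34, -2.76 and -2.70 in WT ureters. At both probes every value labelled KO lay above every WT value, and a probe outside the altered part would not check the genotype. That group is therefore called KO-labelled, and every direction here rests on the labels. In addition to the female KO-labelled replicate 3, WT replicate 2 stood apart, with a mean kidney marker value 1.71 above the genes' averages against -0.55 to -0.19 on the other 5 arrays. Ureter markers were present on all arrays, with 8 of 8 urothelial and 6 of 6 smooth muscle genes measured.

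The 60-base probes of 5 genes are shown because they cover signalling motifs, a transcription factor and an NK receptor among these genes. The printed Cd3d and Cd247 probes are not the ones whose values stand for these genes below. The probes of Cd3d, Cd247 and Lat lie over the tyrosine motifs of the receptor tails and of the adaptor. Capitals there mark a tyrosine codon followed, after any pair of codons, by a leucine codon. In Bcl11b the capitals mark a pair of cysteine codons spaced as in a zinc finger, and the Klrd1 probe, shown for its difference between groups, has no motif marked.
Cd3d: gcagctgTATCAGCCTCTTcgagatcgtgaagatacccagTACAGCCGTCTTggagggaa
Cd247: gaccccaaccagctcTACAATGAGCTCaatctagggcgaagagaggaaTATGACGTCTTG
Lat: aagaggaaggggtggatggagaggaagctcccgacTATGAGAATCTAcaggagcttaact
Bcl11b: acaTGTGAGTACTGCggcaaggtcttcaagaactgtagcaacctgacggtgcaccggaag
Klrd1: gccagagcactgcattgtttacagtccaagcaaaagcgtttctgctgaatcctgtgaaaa

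The probes lie in the mm9 build at chr9:44794171-44794402 (plus strand) for Cd3d, chr1:167786567-167787585 (plus strand) for Cd247, chr7:133507719-133507778 (minus strand) for Lat, chr12:109153847-109153906 (minus strand) for Bcl11b and chr6:129548391-129548450 (plus strand) for Klrd1. The first 2 of these intervals are longer than the probe, so those probes are placed across more than 1 stretch of the genome. Exon and UTR boundaries of this build were not used here. The letters searched for the tyrosine motif were TAC or TAT, then any 6 bases, then CTN or TTG, in any reading frame, and the capitals mark matches on the printed strand. Of all 56605 probes, 12.3% hold at least 1 such match on that strand and 0.793% at least 2, as the Cd3d and Cd247 probes do, while 22% hold a match on either strand. For the cysteine pair the letters were TGT or TGC, then any 6 bases, then TGT or TGC, which 7.96% of probes hold on the printed strand and 13.5% on either. On the opposite strand, which is not marked, the tyrosine letters matched once more among the 3 probes searched for them and the cysteine letters did not match in Bcl11b. Matches to letters describe the probe and are not evidence of a site. The Cd3d, Lat, Bcl11b and Klrd1 probes shown passed the background call on each of the 6 arrays and the Cd247 probe on 0.

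Detection differed among the 34 genes and, for several genes, among their own probes. Of 66 probes, 30 passed the background call on every array and 26 on none. The 9 genes not measured were Cd8a, the alpha chain of the CD8 coreceptor, Cd27, a costimulatory receptor, Themis, a protein of thymocyte selection, the checkpoint receptors Ctla4 and Tigit, the transcription factor Eomes, the NK receptors Ncr1 and Klre1, and Cd96, a receptor of T and NK cells. The best Cd8a probe passed on 1 WT array, while the best Eomes and Cd96 probes passed on 1 KO-labelled array each. None of the 4 Themis, 3 Klre1 or 1 Cd27, Ctla4, Tigit and Ncr1 probes passed on any array. The array also carries a probe named Tcra and a probe named Tcrb-J, for the T cell receptor alpha chain and beta joining segments, and both were well above background on 0 arrays; they were singled out after their values were seen. The defining genes were therefore read in part: all 3 CD3 chains and Lck gave signal on all arrays, whereas Ncr1 and Eomes, which mark NK cells, did not.

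**Figure D1:**
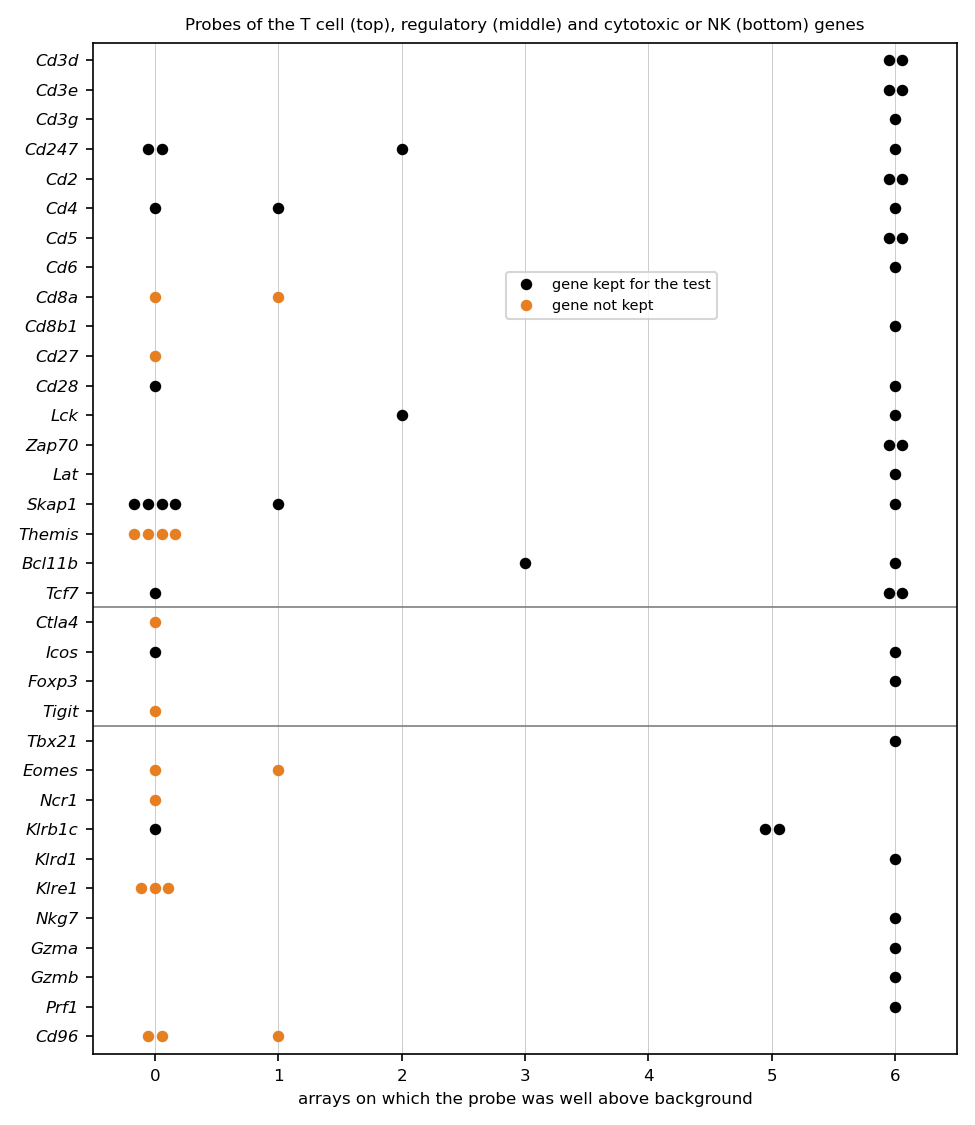
Number of arrays, out of 6, on which each probe of the 34 genes was well above background, with 1 point per probe, probes of equal count set side by side, and orange points for the 9 genes not kept for testing. Of 66 probes 30 sit at 6 arrays and 26 at 0, and genes such as Cd4, Cd247 and Skap1 have probes at both ends.

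Of the 25 measured genes, 0 passed an adjusted p under 0.05 in limma, as did 0 of all 22260 genes (0%). At an unadjusted p under 0.05 there was 1, Bcl11b, against 9.06% of all genes, and it was higher in KO-labelled ureters, where the share of all genes was 4.35%. Groups did not overlap for 1 of the 25, again Bcl11b, against 15.4% of all genes for either direction and 7.28% for higher values. The median difference was 0.07 over the 16 measured T cell genes, 0.12 over the 2 measured regulatory genes and -0.46 over the 7 measured cytotoxic and NK genes, against -0.0009 over all genes. Klrb1c, 1 of the 7, was kept through the WT group only. With only probes well above background on every array, which leaves Klrb1c out, the cytotoxic and NK median was -0.33. These p-values measure the spread between animals as the labels number them, with 3 arrays in each group. Because whole ureter was measured, fewer cells of a type and less RNA per cell cannot be told apart.

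**Figure D2:**
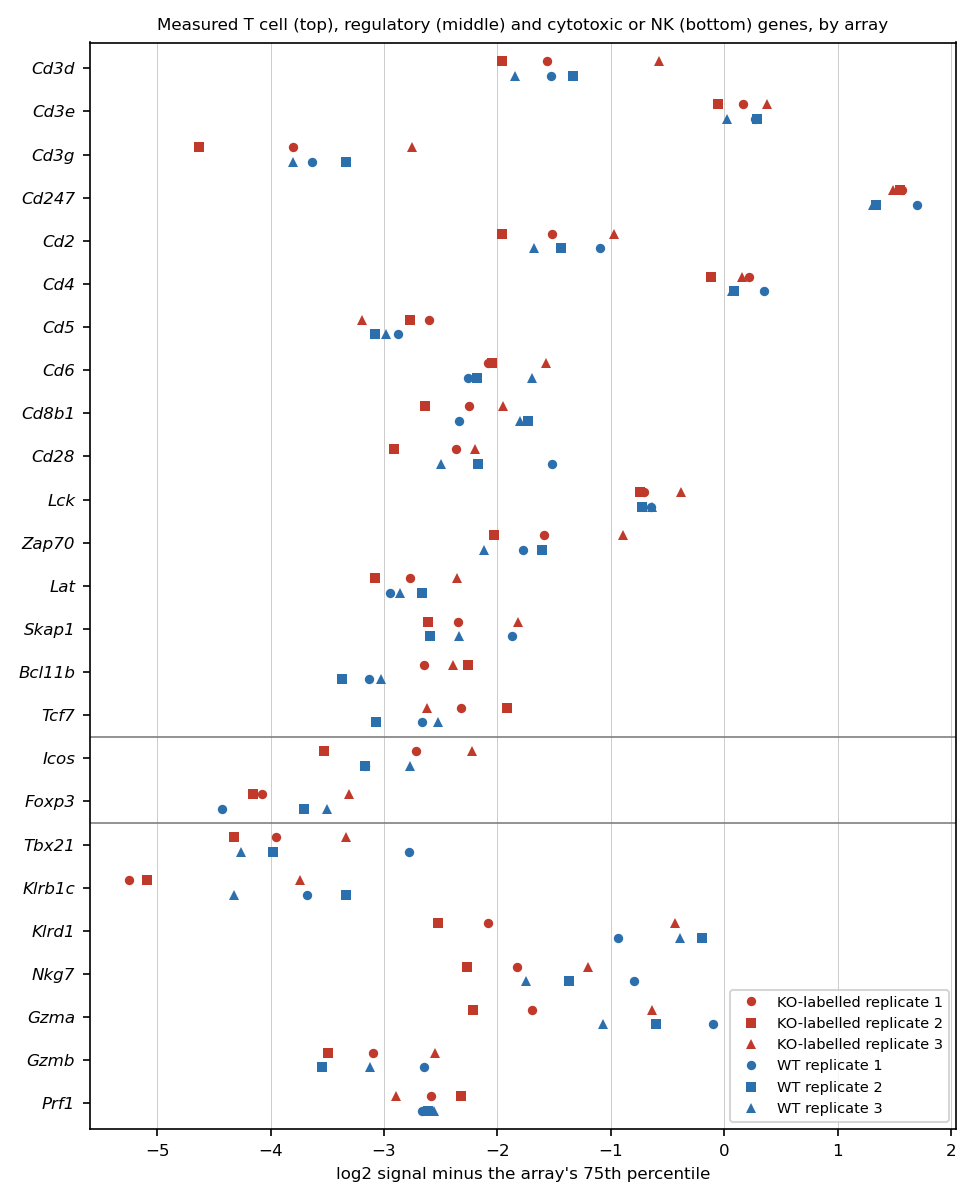
Log2 signal minus the 75th percentile of the array for each of the 25 measured genes, with KO-labelled arrays in red above WT arrays in blue and a marker shape per replicate number. Bcl11b is the gene whose groups do not overlap, and KO-labelled replicate 3 (red triangle) lies at the high end of its group for 19 of the 25 genes.

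Transcripts of the CD3 complex did not separate the groups. Cd3d, the delta chain, had values of -1.56, -1.96 and -0.57 in KO-labelled ureters, against -1.53, -1.33 and -1.85 in WT ureters. The highest and the lowest value both belonged to KO-labelled animals, so the WT range lay inside the KO-labelled range, and the difference was 0.21 ± 0.36 (95% interval -0.67 to 1.08; adjusted p = 0.892). Its second probe, the one that covers both tyrosine motifs, gave 0.34 ± 0.37. Cd3e, the epsilon chain, had values of 0.16, -0.06 and 0.37 in KO-labelled ureters, against 0.27, 0.29 and 0.03 in WT ureters. KO-labelled replicates 2 and 3 enclosed all WT values, and the difference was -0.04 ± 0.15 (95% interval -0.40 to 0.33; adjusted p = 0.961). The second Cd3e probe, well above background on all arrays, was much dimmer. It read -2.64, -2.82 and -2.63 in KO-labelled ureters, against -2.57, -2.75 and -2.74 in WT ureters, and gave -0.01 ± 0.12. Cd3g, the gamma chain, had values of -3.80, -4.63 and -2.75 in KO-labelled ureters, against -3.64, -3.33 and -3.80 in WT ureters. KO-labelled replicates 2 and 3 again gave the lowest and the highest value, and the difference was -0.14 ± 0.46 (95% interval -1.24 to 0.97; adjusted p = 0.949). The probes of these 3 genes lie on chromosome 9 between positions 44777868 and 44807313.

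Cd247, the zeta chain, had values of 1.57, 1.55 and 1.49 in KO-labelled ureters, against 1.70, 1.34 and 1.32 in WT ureters. Its KO-labelled values lay within the WT range, with a difference of 0.08 ± 0.13 (95% interval -0.24 to 0.41; adjusted p = 0.879). Only the probe used, at chr1:167791567-167791626, was well above background on all arrays, and the other 3 passed on 0, 0 and 2 arrays. The printed probe over the tyrosine motifs read -6.11, -5.26 and -5.43 in KO-labelled ureters, against -5.50, -5.70 and -6.38 in WT ureters. These values lie far below those of the used probe, and whether the used probe read the zeta chain transcript was not tested. Over the 6 arrays the used Cd247 probe varied by 0.38, whereas the Cd3d probe varied by 1.39 and the Cd3g probe by 1.88, with the animals in a different order.

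The kinases and adaptors downstream of the receptor were also within the spread of the animals. Lck, the kinase that phosphorylates the CD3 tails, had values of -0.71, -0.74 and -0.38 in KO-labelled ureters, against -0.65, -0.73 and -0.63 in WT ureters. The WT values fell inside the KO-labelled range, and the difference was 0.06 ± 0.13 (95% interval -0.25 to 0.38; adjusted p = 0.915). Zap70, the kinase recruited to the phosphorylated tails, had values of -1.59, -2.03 and -0.89 in KO-labelled ureters, against -1.77, -1.60 and -2.12 in WT ureters. Replicate 3 was the highest of the KO-labelled group and the groups overlapped, with a difference of 0.33 ± 0.30 (95% interval -0.41 to 1.06; adjusted p = 0.778); the second Zap70 probe gave 0.32 ± 0.32. Lat, the membrane adaptor, differed by 0.09 ± 0.20 over values from -3.08 to -2.36 in KO-labelled ureters and from -2.95 to -2.67 in WT ureters. Skap1, an adaptor that links the receptor to integrins, differed by 0.01 ± 0.27 (adjusted p = 0.995).

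Coreceptors and other surface proteins gave differences on either side of 0. Cd4, the helper coreceptor, had values of 0.22, -0.12 and 0.16 in KO-labelled ureters, against 0.35, 0.09 and 0.07 in WT ureters. The ranges overlapped, and the difference was -0.08 ± 0.14 (95% interval -0.42 to 0.26; adjusted p = 0.892); its other 2 probes were well above background on 1 and 0 arrays. Those other probes read far lower, and whether the used probe read the Cd4 transcript was not tested. Cd8b1, the beta chain of CD8, had values of -2.25, -2.64 and -1.95 in KO-labelled ureters, against -2.34, -1.73 and -1.80 in WT ureters. WT replicate 1 lay among the KO-labelled values, and the difference was -0.32 ± 0.24 (95% interval -0.90 to 0.26; adjusted p = 0.723). The 2 probes of Cd8a, the chain that pairs with Cd8b1, were well above background on 0 and 1 arrays, and the better of them had values of -5.15, -5.35 and -5.23 in KO-labelled ureters, against -5.60, -4.97 and -4.50 in WT ureters.

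Cd28, the main costimulatory receptor, differed by -0.43 ± 0.30 (adjusted p = 0.705), the largest negative difference among the measured T cell genes. Its values were -2.36, -2.91 and -2.20 in KO-labelled ureters, against -1.52, -2.17 and -2.50 in WT ureters. WT replicate 3 lay below KO-labelled replicates 1 and 3, so the order was mixed. Cd2, an adhesion receptor, differed by -0.08 ± 0.28, Cd5, an inhibitory coreceptor of T cells, by 0.12 ± 0.17 and Cd6, its close relative, by 0.14 ± 0.21.

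Bcl11b, a zinc finger transcription factor that sets and keeps T cell identity, had values of -2.65, -2.26 and -2.40 in KO-labelled ureters, against -3.14, -3.37 and -3.02 in WT ureters. Every KO-labelled value lay above every WT value. The difference was 0.74 ± 0.15 (95% interval 0.38 to 1.11), a ratio of 1.68 on the linear scale, with an unadjusted p of 0.00236 that did not pass after adjustment over all genes (adjusted p = 0.418). Its second probe was well above background on 2 KO-labelled arrays and 1 WT array, with values of -4.80, -5.18 and -4.83 in KO-labelled ureters, against -6.68, -5.96 and -4.91 in WT ureters. At that probe WT replicate 3 lay above KO-labelled replicate 2. Unlike most of the other genes, Bcl11b did not have its highest KO-labelled value in replicate 3 or its lowest in replicate 2.

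Tcf7, which encodes TCF1, a transcription factor of naive and memory T cells, had values of -2.32, -1.92 and -2.62 in KO-labelled ureters, against -2.67, -3.07 and -2.52 in WT ureters. KO-labelled replicates 1 and 2 lay above all WT values and replicate 3 among them. The difference was 0.47 ± 0.23 (95% interval -0.08 to 1.02; adjusted p = 0.595), and a second Tcf7 probe gave 0.41 ± 0.19. Neither Bcl11b nor Tcf7 is restricted to T cells, and both are known from epithelial tissues, Bcl11b from skin and Tcf7 as a mediator of Wnt signalling. Of 8 urothelial markers, 7 were also higher in KO-labelled ureters, with a median difference of 0.89 and summed levels of 203.81 to 330.33 in KO-labelled ureters, against 115.75 to 193.41 in WT ureters (linear signal over the 75th percentile). The urothelial keratin genes Krt5, Krt7 and Krt20 differed by 0.91 ± 0.19, 0.95 ± 0.20 and 0.88 ± 0.21. Trp63, the 1 marker that was lower, differed by -0.32 ± 0.10 with no overlap between groups. By array, the mean over the 8 markers overlapped, at -0.025 in KO-labelled replicate 3 against 0.132 in WT replicate 1. The part of urothelial cells in the Bcl11b and Tcf7 differences was not tested.

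Regulatory T cell genes showed no separation where they were measured. Foxp3 had values of -4.07, -4.15 and -3.31 in KO-labelled ureters, against -4.43, -3.71 and -3.50 in WT ureters. The groups overlapped over most of their ranges, and the difference was 0.04 ± 0.32 (95% interval -0.75 to 0.82; adjusted p = 0.982). Icos, a costimulatory receptor of activated and regulatory T cells, had values of -2.72, -3.53 and -2.22 in KO-labelled ureters, against -3.17, -3.17 and -2.77 in WT ureters. KO-labelled replicate 2 was the lowest array and replicate 3 the highest, with a difference of 0.21 ± 0.33 (95% interval -0.60 to 1.02; adjusted p = 0.878). The Ctla4 probe, whose gene product restrains costimulation, had values of -5.69, -7.31 and -5.76 in KO-labelled ureters, against -6.50, -5.18 and -6.59 in WT ureters, none of them well above background.

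The cytotoxic and NK genes held the largest negative differences, with 5 of 7 measured genes lower and 2 near 0. Klrb1c, counted among the 5, was kept through the WT group and is no support for that count. Klrd1, which encodes CD94, the partner of the NKG2 receptors, had values of -2.08, -2.52 and -0.43 in KO-labelled ureters, against -0.94, -0.20 and -0.39 in WT ureters. KO-labelled replicates 1 and 2 lay below every WT array, and replicate 3 lay within the WT range. The difference was -1.17 ± 0.55 (95% interval -2.49 to 0.15), a ratio of 0.444 on the linear scale, and did not pass (adjusted p = 0.580). Klrb1c, which encodes the NK cell marker NK1.1, had values of -5.25, -5.09 and -3.74 in KO-labelled ureters, against -3.68, -3.34 and -4.32 in WT ureters. Its probe was well above background on 2 KO-labelled and 3 WT arrays, so it was kept through the WT group, and replicate 3 again lay within the WT range, apart from the other KO-labelled animals. The difference was -0.92 ± 0.45 (95% interval -2.02 to 0.19; adjusted p = 0.603), and a second Klrb1c probe gave -0.64 ± 0.41.

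Gzma, the serine protease granzyme A, had values of -1.70, -2.21 and -0.63 in KO-labelled ureters, against -0.10, -0.61 and -1.07 in WT ureters. The same 2 KO-labelled animals lay below all WT values, and the difference was -0.92 ± 0.44 (95% interval -2.00 to 0.15; adjusted p = 0.590). Nkg7, a protein of cytotoxic granules, had values of -1.83, -2.27 and -1.20 in KO-labelled ureters, against -0.80, -1.37 and -1.75 in WT ureters. KO-labelled replicates 1 and 2 lay below every WT array, replicate 1 by a small margin. WT replicate 1 was the highest array, KO-labelled replicate 3 lay above the other WT arrays, and the difference was -0.46 ± 0.34 (95% interval -1.29 to 0.37; adjusted p = 0.728).

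Gzmb and Prf1, the killing proteins granzyme B and perforin, had no such pattern. Gzmb had values of -3.10, -3.50 and -2.56 in KO-labelled ureters, against -2.65, -3.55 and -3.12 in WT ureters. Its groups covered nearly the same range, with a difference of 0.06 ± 0.31 (95% interval -0.70 to 0.81; adjusted p = 0.973). Prf1 had values of -2.59, -2.32 and -2.90 in KO-labelled ureters, against -2.66, -2.61 and -2.56 in WT ureters. The WT values lay inside the KO-labelled range, and the difference was 0.01 ± 0.16 (95% interval -0.38 to 0.40; adjusted p = 0.991). Tbx21, which encodes T-bet, the transcription factor of type 1 immunity, had values of -3.95, -4.32 and -3.33 in KO-labelled ureters, against -2.78, -3.98 and -4.27 in WT ureters. WT replicate 1 was the highest array and the rest were mixed, with a difference of -0.19 ± 0.44 (95% interval -1.26 to 0.87; adjusted p = 0.923). The Eomes and Ncr1 probes stayed near background. The better Eomes probe had values of -5.19, -4.40 and -5.22 in KO-labelled ureters, against -5.28, -4.80 and -5.27 in WT ureters, and the Ncr1 probe had -6.26, -7.25 and -5.59, against -4.95, -4.87 and -7.05.

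Without KO-labelled replicate 3, the female, 5 of the 25 genes had an unadjusted p under 0.05 in limma and 0 passed after adjustment, against 13.7% of all genes for the unadjusted p. Klrd1, Klrb1c and Gzma were lower, where the share of all genes was 7.65%, and Bcl11b and Tcf7 were higher. The Klrb1c probe was well above background on 2 KO-labelled and 3 WT arrays and was kept through the WT group. Its calls in this paragraph are therefore no support for a difference. The Klrd1 difference was then -1.80 ± 0.27 (adjusted p = 0.153), that of Klrb1c -1.39 ± 0.30 (adjusted p = 0.181) and that of Gzma -1.36 ± 0.33 (adjusted p = 0.193). Without KO-labelled replicate 2 instead, the differences were smaller, at -0.75 for Klrd1, -0.72 for Klrb1c and -0.57 for Gzma. For Klrd1, Klrb1c and Gzma replicate 3 was the highest KO-labelled array, and for Tcf7 the lowest. Larger differences of these genes without replicate 3 follow from that order and are no support for a difference. Bcl11b stood at 0.73 ± 0.18 (adjusted p = 0.207) and Tcf7 at 0.64 ± 0.22 (adjusted p = 0.320) in limma without KO-labelled replicate 3. When WT replicate 2 was left out as well, Klrd1, Klrb1c, Gzma and Bcl11b had an unadjusted p under 0.05, against 9.66% of all genes and 5.58% for lower values, and their differences were -1.64, -1.17, -1.37 and 0.63. With array weights, whose estimation did not converge, Cd247, Cd8b1, Klrd1 and Bcl11b had an unadjusted p under 0.05, against 27.3% of all genes and 13.9% for lower values, and 0 of the 25 passed after adjustment. The animal's sex and its position among the KO-labelled arrays cannot be told apart, since no other female was sampled.

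**Figure D3:**
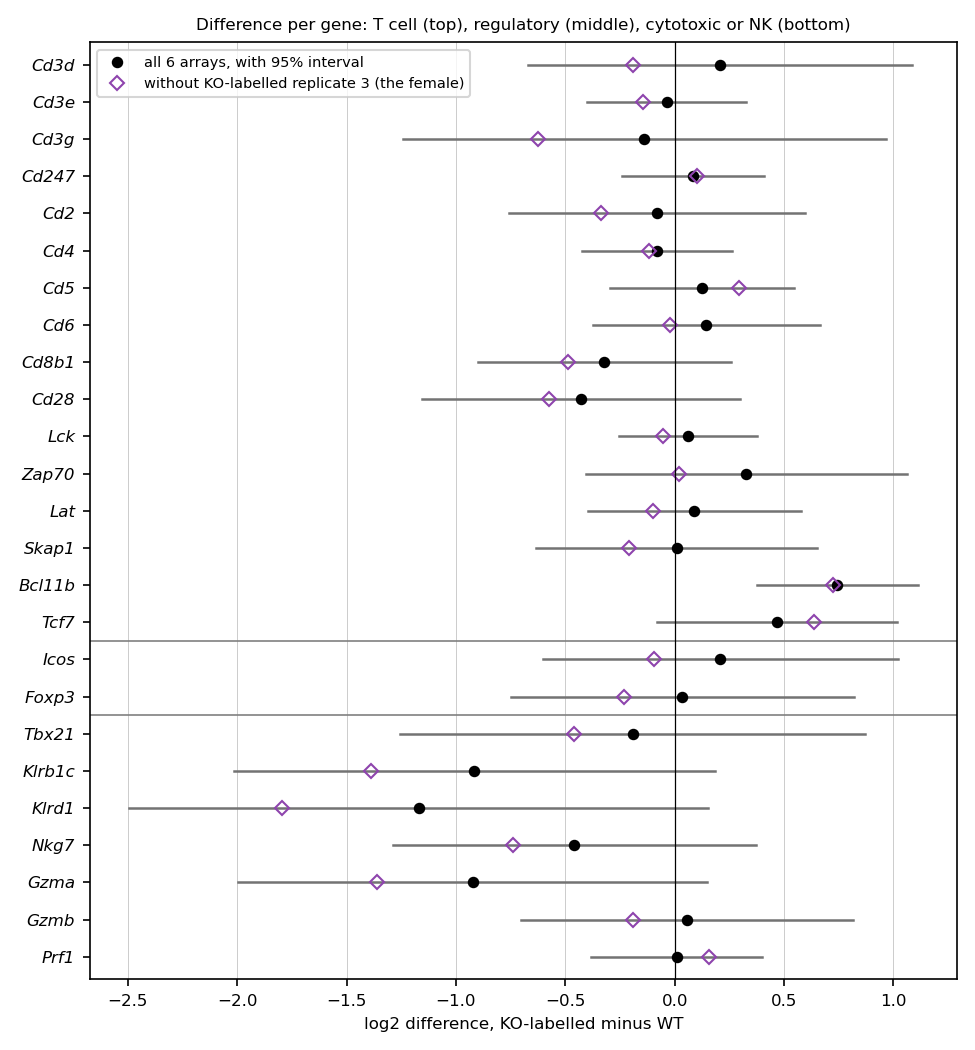
Log2 difference, KO-labelled minus WT, of each measured gene with all 6 arrays (black points with 95% intervals) and without KO-labelled replicate 3 (purple diamonds). The Bcl11b interval of 0.38 to 1.11 is the one that does not reach 0, and the diamonds of Klrd1, Klrb1c and Gzma lie at -1.80, -1.39 and -1.36.

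A list of 20 cytotoxic and NK genes outside the 34 holds other lectin-like killer cell receptors, of which 6 were measured. Klrb1b, Klra7, Klra8 and Klrk1 had values below all WT arrays in KO-labelled replicates 1 and 2, and Klrg1 and Klrb1f, at 0.12 ± 0.42 and -0.0026 ± 0.24, did not. Klrg1 and Klrb1f were well above background on 3 KO-labelled and 2 WT arrays each. Klrg1, Klrb1f, Klra8 and Klrk1 were named after their values were seen. Klrb1b, a relative of Klrb1c that inhibits NK cells, had values of -3.34, -3.49 and -2.41 in KO-labelled ureters, against -2.32, -1.79 and -1.85 in WT ureters. All KO-labelled values lay below all WT values, and the difference was -1.09 ± 0.31 (adjusted p = 0.457). Klra7, which encodes a Ly49 receptor for class I molecules, had values of -5.51, -5.45 and -3.20 in KO-labelled ureters, against -3.28, -3.40 and -3.78 in WT ureters. KO-labelled replicate 3 was the highest array and the other KO-labelled arrays the lowest, with a difference of -1.24 ± 0.63 (adjusted p = 0.606). This probe was well above background on 1 KO-labelled and 3 WT arrays, so it was kept through the WT group and 2 of its KO-labelled values were not well above background. Klra8, whose probe was well above background on 2 KO-labelled and 3 WT arrays and was also kept through the WT group, differed by -1.29 ± 0.67, and by -1.95 ± 0.51 without replicate 3. Klrk1 differed by -0.62 ± 0.42, and by -1.11 ± 0.17 without replicate 3. Neither gene passed in limma without replicate 3 (adjusted p = 0.212 for Klra8 and 0.153 for Klrk1). Both were named after their values were seen, with replicate 3 the highest of its group. A larger difference without it follows from that choice and is no support for the pattern. Klrk1, the NKG2D receptor, is shared by NK cells and CD8 T cells. Ly49 genes are a family of near-identical copies, so which copy a probe read is uncertain.

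The probes of Klrb1c, Klrb1b, Klrd1, Klrk1, Klra8 and Klra7 lie on chromosome 6 of mm9 between positions 128729611 and 130168958, in the cluster of NK receptor genes. Klre1 and Klrb1f lie in the same interval. Klre1 was not measured, and the dim Klrb1f probe, with means of -4.66 in both groups, differed by -0.0026 ± 0.24. Gzma, which was lower by a similar amount to Klrb1c, lies on chromosome 13. The part of the shared position in these differences was not tested.

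**Figure D4:**
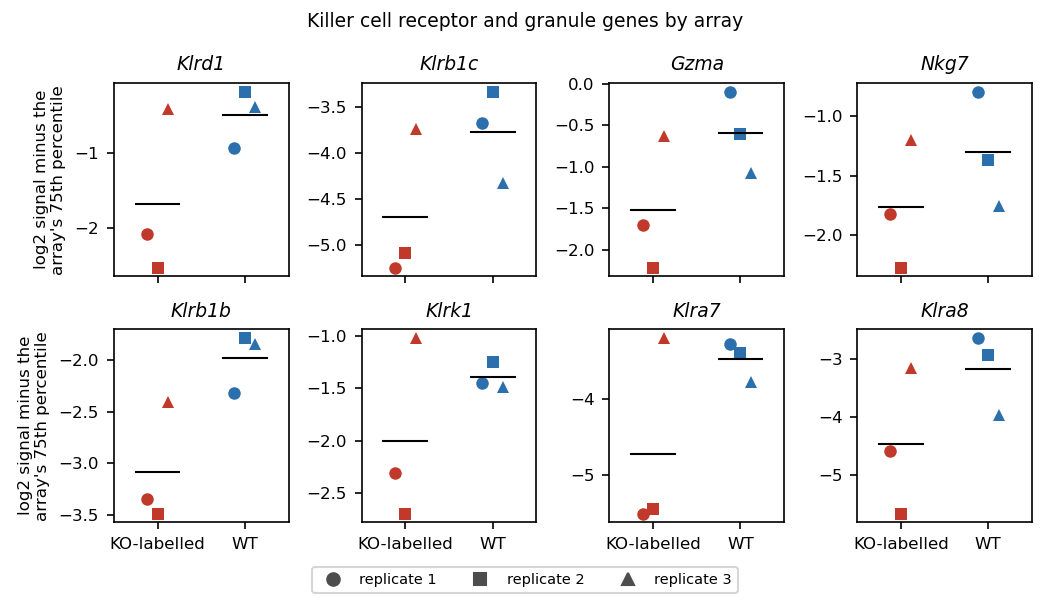
Log2 signal minus the 75th percentile of the array for 4 of the 34 genes (upper row) and 4 other receptor genes (lower row), with KO-labelled arrays left of WT arrays, a marker shape per replicate number and black lines at group means. In the panels of Klrd1, Klrb1c, Gzma, Nkg7, Klrk1, Klra7 and Klra8, KO-labelled replicates 1 and 2 lie below the WT arrays and replicate 3 lies among or above them.

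Many of these genes spread widely over the animals, and most shared an order. Their range over the 6 arrays had a median of 1.12, against 0.57 for all measured genes. The comparison was not matched for signal level, and most of the genes were dim. The brighter Lck, Cd247, Cd3e and Cd4 had ranges of 0.36, 0.38, 0.43 and 0.47, below that of all genes, while Klrd1 and Gzma had 2.33 and 2.11. For Lck, Cd247, Cd3e and Cd4 the other probes of the gene were much dimmer than the used one. Whether the used probes read these transcripts was not tested. KO-labelled replicate 3 was the highest of its group for 19 of the 25 genes, where it was for 37.3% of all genes. KO-labelled replicate 2 was the lowest for 18 of the 25, against 30.5% of all genes, and both held for 17 of the 25, against 19.3% of all genes. Averaged over the 16 T cell genes after each gene's mean was subtracted, the arrays stood at 0.01, -0.22 and 0.32 in KO-labelled ureters, against 0.05, -0.05 and -0.10 in WT ureters. The cytotoxic and NK genes stood at -0.45, -0.69 and 0.37 in KO-labelled ureters, against 0.54, 0.25 and -0.02 in WT ureters. In both sets the KO-labelled animals covered a wider range than the WT animals, whose T cell values differed by little.

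Genes that act beside these 34 were read from 7 lists, and none of them passed after adjustment in limma. Of 14 measured genes of T cell receptor signalling, 12 were lower, with a median of -0.35, and 4 had an unadjusted p under 0.05, all lower, where the share of all genes was 4.71%. Fyb, an adaptor also used by myeloid cells, differed by -0.94 ± 0.34 and Ptpn22, a phosphatase that restrains the receptor, by -0.59 ± 0.22. Ptpn22 is also used by B cells and myeloid cells. Prkcq, a protein kinase C of T cell receptor signalling that was named after its values were seen, differed by -0.13 ± 0.29.

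Among costimulation and checkpoint genes, 9 of 12 were lower with a median of -0.25, and 2, both lower, had an unadjusted p under 0.05, against 9.06% of all genes for either direction and 4.71% for lower values. Lag3, an inhibitory receptor for class II molecules, had values of -2.96, -2.52 and -2.73 in KO-labelled ureters, against -1.81, -2.44 and -2.14 in WT ureters. The groups did not overlap, although KO-labelled replicate 2 and WT replicate 2 were close, and the difference was -0.60 ± 0.20 (adjusted p = 0.480). Btla, an inhibitory receptor that B cells also carry, differed by -0.83 ± 0.33 and Ikzf2, the Helios factor of regulatory T cells, by 0.41 ± 0.19. Of the helper cell regulators and cytokines, 8 of 14 were measured, and Ifng, Il5, Il13, Il17a, Il17f and Il22 were not. Maf, which macrophages also express, differed by -0.56 ± 0.21, Stat4, which transmits interleukin-12 signals, by -0.58 ± 0.35 and Il2, the T cell growth factor, by -0.44 ± 0.19. In this list 7 of 8 genes were lower and 1, Maf, had an unadjusted p under 0.05, which is near the 9.06% of all genes.

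The other cytotoxic and NK genes had a median of -0.06 over 15 measured, with 11 lower, and 1, Klrb1b, at an unadjusted p under 0.05, no more than the 9.06% of all genes. Il18r1, a receptor chain for interleukin-18, differed by 0.30 ± 0.14 with no overlap between groups. Of 10 genes of gamma delta and innate-like T cells 5 were measured, and Trdc, Tcrg-C1, Tcrg-V4, Blk and Il23r were not. Il7r, the interleukin-7 receptor of lymphocytes, had values of -1.14, -1.05 and 0.81 in KO-labelled ureters, against 0.13, 1.14 and 0.57 in WT ureters. Replicate 3 stood well above the other KO-labelled animals, and the difference was -1.07 ± 0.57 (adjusted p = 0.616). Zbtb16, the PLZF factor of innate-like T cells, differed by 0.57 ± 0.41 and Sox13, a factor of gamma delta T cells, by 0.13 ± 0.10.

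Homing genes gave calls at an unadjusted p under 0.05 in both directions, 2 higher and 1 lower of 11 measured, against 4.35% and 4.71% of all genes, with a median of -0.09. Ccr7, the receptor that guides naive T cells and migrating dendritic cells to lymph nodes, had values of -0.62, -0.78 and 0.17 in KO-labelled ureters, against 0.65, 0.46 and 0.77 in WT ureters. No KO-labelled value reached the WT values, and the difference was -1.03 ± 0.26 (adjusted p = 0.440). Lef1, a partner of Tcf7 in Wnt signalling, had values of -1.68, -1.47 and -1.79 in KO-labelled ureters, against -2.07, -2.54 and -1.84 in WT ureters. These groups did not overlap either, by a small margin at replicate 3 of each group, and the difference was 0.50 ± 0.20 (adjusted p = 0.537). Cxcr6, a receptor of tissue-resident T and NK cells, differed by 0.36 ± 0.15 with no overlap (adjusted p = 0.542). Of 12 measured chemokines and cytokines that draw or sustain T cells 9 were lower, with a median of -0.29. Cxcl16, the ligand of Cxcr6, differed by -0.51 ± 0.20 and Il18, a cytokine that activates NK cells, by -0.28 ± 0.13. Il12b, a subunit of interleukin-12, differed by -0.43 ± 0.15, but its probe was well above background on 1 KO-labelled and 3 WT arrays and was kept through the WT group.

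Pan-leukocyte, dendritic cell and macrophage markers were lower in KO-labelled ureters, while 6 of 8 neutrophil markers were higher. All 6 pan-leukocyte genes were lower, with a median of -0.59, and their summed levels were 64.61 to 134.80 in KO-labelled ureters, against 94.96 to 160.37 in WT ureters (linear signal over the 75th percentile). Laptm5, a lysosomal protein of blood cells, had the lowest p of the list and differed by -0.76 ± 0.29 (adjusted p = 0.523). Of 9 dendritic cell genes 8 were measured, Xcr1 was well above background on too few arrays, and all 8 were lower, with a median of -1.32. Clec9a, the lowest of the 8 at -1.81 ± 0.56, was well above background on 2 KO-labelled and 3 WT arrays. It was kept through the WT group and is no support for this count or median. The summed levels of the 8 genes were 56.17 to 119.24 in KO-labelled ureters, against 200.47 to 228.95 in WT ureters, and did not overlap. Cd74, the class II invariant chain, differed by -1.34 ± 0.28, H2-Ab1, a class II beta chain, by -1.33 ± 0.28 and H2-Aa, a class II alpha chain, by -1.31 ± 0.32. The linear sum was carried mostly by H2-Ab1 and Cd74, with mean log2 values of 6.98 and 6.23 in WT ureters. Which cells gave the signal of Cd74, H2-Ab1 and H2-Aa was not tested. Flt3, Zbtb46 and Clec9a of the same list had WT means of -0.45, -2.27 and -2.43 and added little to it. Zbtb46, named after its values were seen, had the smallest difference, at -0.26 ± 0.22 with overlap between groups. All 10 macrophage genes were lower, with a median of -0.54 and summed levels of 188.84 to 300.02 in KO-labelled ureters, against 305.16 to 382.92 in WT ureters. Mertk, a receptor for dying cells, differed by -0.47 ± 0.09. The part of these cells in the differences of Fyb, Maf, Ccr7 and the killer receptors was not tested.

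B cell markers had a median nearer 0. All 8 were measured and 7 were lower, with a median of -0.16 and summed levels of 2.18 to 3.07 in KO-labelled ureters, against 2.63 to 3.74 in WT ureters. Fcer2a, the low-affinity IgE receptor of mature B cells, had the lowest p of the list and differed by -0.55 ± 0.24 (adjusted p = 0.573). By array, the pan-leukocyte genes stood at -0.60, -0.70 and 0.40 in KO-labelled ureters, against -0.06, 0.61 and 0.34 in WT ureters. KO-labelled replicate 3 was thus the highest of its group for leukocytes in general, as it was for T cell and NK genes. The T cell genes nevertheless had a median difference of 0.07 where the pan-leukocyte genes had -0.59; that contrast was not tested.

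**Figure D5:**
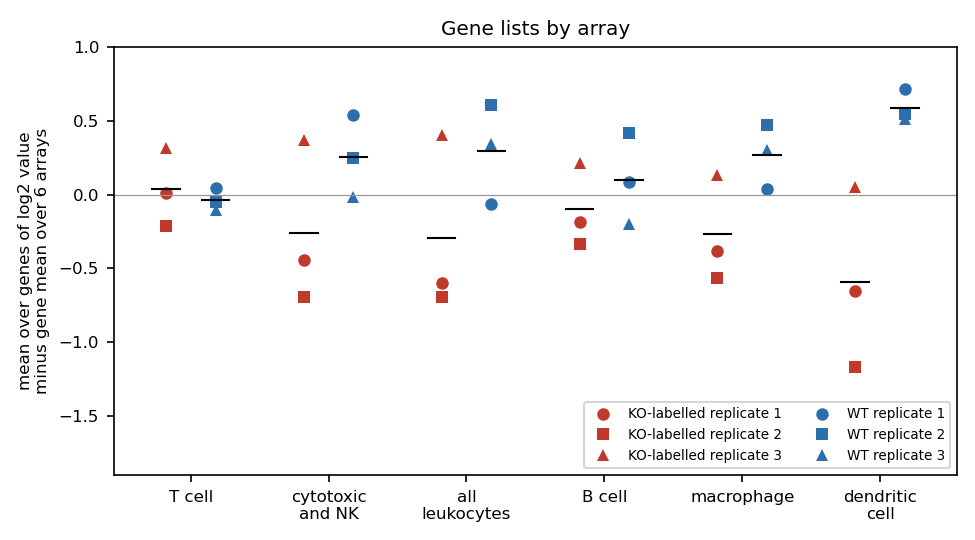
Mean over the genes of a list of the log2 value minus the gene's mean over 6 arrays, for each array, with KO-labelled arrays in red left of WT arrays in blue and black lines at group means. Dendritic cell genes are the list shown whose groups do not overlap, and KO-labelled replicate 3 lies above replicates 1 and 2 in all 6 lists. The dendritic cell list includes Clec9a and the cytotoxic and NK list Klrb1c, both kept through the WT group.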

How the data were processed

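Total RNA from 6 ureters, 3 labelled Col17a1-KO and 3 Col17a1-WT, was measured on 1-colour Agilent arrays, 1 per mouse. The deposited intensity values are scanner output of Agilent Feature Extraction 12.0.3.1, per the submitters' processing notes. Per the file headers, the authors' processed signal intensity had its background subtracted, all arrays lay on 1 slide with 1 scan time, and probe coordinates refer to mm9. The sources used here do not give any normalisation between arrays by the authors.

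From these files, spots of a probe were averaged after control spots and outlier spots were left out, and the log2 processed signal was centred on the 75th percentile of each array. Of 56605 probes 35400 matched an accession in the RefSeq table of mouse, which changed 1 symbol. A probe was kept where the scanner software called it well above background on all arrays of either group, and the brightest probe stood for its gene, which gave 22260 genes. No spot was saturated, and 35482 to 36567 probes per array were well above background. The number of arrays sets the precision. KO-labelled and WT arrays were compared with limma 3.58.1 (lmFit, eBayes; R 4.3.3) across all genes, and p-values were adjusted by Benjamini-Hochberg (threshold 0.05). The procedure was tested on simulated data. List values are means over genes of log2 values from which the gene's mean was subtracted, and carry no test.

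The members and lists were chosen with earlier results of these data known. All 34 members are named, with array values for the lineage-defining ones and for any with an unadjusted p under 0.05 or no overlap; of each other list up to 3 or 4 genes with the lowest p are named, marker genes below background included. Some genes of the signalling list are not reported here by name. Alternatives were normexp background with an offset of 50, quantile normalisation, median centring, no filter and a stricter filter on dim probes, the mean of a gene's probes, an intensity trend with a robust prior, array weights, a replicate block, a sex covariate, each array left out, and WT replicate 2 and KO replicate 3 left out together.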

Additional observations from a re-analysis of the deposited data

How the results depend on the processing

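None of the 25 measured genes passed the adjusted threshold in limma under any of the 17 alternatives. Of 424 differences recomputed for single genes, 372 kept their direction and 52 turned; every gene that turned had a difference of at most 0.21 in size with all arrays, and 10 genes never turned, among them Bcl11b, Tcf7, Klrd1, Klrb1c and Gzma. Bcl11b had an unadjusted p under 0.05 in every setting, with adjusted p-values from 0.0619 with array weights to 0.968 without KO replicate 2. The count of all genes past the threshold was 0 in the main setting, 498 with array weights, whose estimation did not converge, and 0 to 1 with each array left out. The replicate numbers did not pair the samples (correlations of deviations 0.53, -0.15 and -0.03 for numbers 1 to 3), and with the number as a block 1 gene and 0 of the 25 passed. With normexp background, differences turned for Foxp3 (-0.0322), Gzmb (-0.0016), Prf1 (-0.0006) and Skap1 (-0.0033), and Bcl11b, Klrd1 and Klrb1c shrank to 0.17, -0.60 and -0.14; the cause was not tested. Array weights turned Cd3e (0.0749), Cd2 (0.0779), Cd4 (0.0361), Cd6 (-0.23), Icos (-0.053), Foxp3 (-0.42), Lck (-0.0175) and Tbx21 (0.24). Sex as a covariate, which takes out the only female, turned Cd3d (-0.19), Cd6 (-0.0209), Icos (-0.0923), Foxp3 (-0.23), Lck (-0.0526), Lat (-0.10), Gzmb (-0.19) and Skap1 (-0.21). Without WT replicate 2 and KO replicate 3 together these genes had -0.0713, -0.0899, -0.16, -0.15, -0.0819, -0.0223, -0.41 and -0.37, in the same order. With each array left out in turn, the genes that turned ranged from -0.19 to 0.50 (Cd3d), -0.14 to 0.0712 (Cd3e), -0.63 to 0.31 (Cd3g), -0.34 to 0.16 (Cd2), -0.15 to 0.0216 (Cd4), -0.0024 to 0.30 (Cd5), -0.0209 to 0.32 (Cd6), -0.0923 to 0.56 (Icos), -0.24 to 0.23 (Foxp3), -0.0526 to 0.13 (Lck), -0.10 to 0.26 (Lat), -0.21 to 0.21 (Skap1), -0.49 to 0.26 (Tbx21), -0.19 to 0.28 (Gzmb) and -0.13 to 0.16 (Prf1). Among genes that did not turn, the ranges were -1.80 to -0.75 (Klrd1), -1.39 to -0.64 (Klrb1c) and -1.36 to -0.57 (Gzma). The median of the cytotoxic and NK genes stayed below 0, from -0.77 without WT replicate 2 and KO replicate 3 to -0.14 with normexp background, with -0.16 under array weights. That of the 2 regulatory genes turned to -0.24 with array weights, -0.16 without KO replicate 3 or with sex as a covariate, -0.15 without WT replicate 2 and KO replicate 3, -0.0635 with no filter and -0.0488 without WT replicate 1. That of the T cell genes turned to -0.11 without KO replicate 3 or with sex as a covariate, and to -0.0859 without WT replicate 2 and KO replicate 3. Klrb1c has no value under the stricter filter on dim probes.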

Other observations

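Of 6 genes of lymph node stroma and high endothelium, through which lymphocytes leave the blood, 4 were measured, and Ccl19 and Chst4 were not. Madcam1, an addressin that binds homing lymphocytes, was well above background on 3 KO-labelled arrays and 0 WT arrays, so it was kept through the KO-labelled group. Its values were -4.38, -3.51 and -3.79 in KO-labelled ureters, against -6.45, -6.14 and -5.35 in WT ureters. It was at least 2.31-fold higher in KO-labelled ureters, as the mean of the KO-labelled arrays against the higher of the dim probe's signal and the lowest well-measured signal on each WT array, and did not pass in limma (adjusted p = 0.398). Glycam1, another addressin, differed by 0.30 ± 0.20 with overlap, and Ccl21a and Cxcl13, chemokines that organise lymphoid tissue, differed by 0.52 ± 0.45 and 0.45 ± 0.40 with overlap between groups.

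Of 8 neutrophil genes 6 had higher values in KO-labelled ureters and 2, Mmp8 and Cxcr2, lower values, at -0.71 ± 0.99 and -0.07 ± 0.95. S100a8, S100a9, Mmp8 and Cxcr2 overlapped between groups. Camp, a cathelicidin, differed by 1.17 ± 0.18 and Ltf, lactoferrin, by 1.99 ± 0.37, and Ngp was at least 3.62-fold higher in KO-labelled ureters, with adjusted p-values of 0.398 for Camp, 0.418 for Ltf and 0.398 for Ngp, whose probe was well above background on 0 WT arrays. Ly6g, a neutrophil surface protein, differed by 0.34 ± 0.14. Kidney genes were low outside WT replicate 2. Umod, Slc12a1 and Nphs1 were not measured, and Lrp2, an endocytic receptor of the tubule, differed by -0.89 ± 0.14 (adjusted p = 0.398), with its probe well above background on 1 KO-labelled and 3 WT arrays and so kept through the WT group. All 6 smooth muscle genes were higher, with a median of 0.71, led by p by Actg2 at 0.74 ± 0.35 (adjusted p = 0.591).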
